A study of Mus musculus with 12 samples.

Results

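Rplp0 and Npm1 were followed together with 6 of their processed copies in the trigeminal ganglia of 12 mice. The 8 genes were the rows of the deposited expression table whose Ensembl identifiers map to Rplp0, Gm8730, Gm9625, Gm14165, Npm1, Gm9118, Gm6477 and Gm12583, out of 51341 rows. They were chosen because earlier results of the same table, in which the 12 mice were compared by response, had drawn attention to their values. Their values by response group are therefore a description, with no test. All mice were of the CD1 stock, which is outbred, and no transgene or deleted allele is named in the labels. One group was 6 responders, described as responsive to PACAP (pituitary adenylate cyclase-activating polypeptide, a neuropeptide), and the other was 6 nonresponders, with 3 males and 3 females in each. The series title concerns light aversion that PACAP induces and its inheritance. The sources used here give neither the age of the mice nor the dose and timing of PACAP. Each library was labelled as a separate sample of its group, and RNA was selected by its poly A tail.

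Rplp0 encodes the large ribosomal subunit protein at the base of the stalk, the flexible arm that recruits the GTPases of translation. Npm1 encodes nucleophosmin, an abundant nucleolar chaperone of ribosome assembly and of histones. A processed copy arises when a messenger RNA is reverse transcribed and inserted elsewhere in the genome, so it lacks introns and usually a promoter of its own. Because such a copy resembles the coding sequence of its parent, a sequencing read from one can also align to the other.

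In the GENCODE M21 annotation of GRCm38, Rplp0 (ENSMUSG00000067274) lies on chromosome 5 from 115559467 to 115563727, plus strand. Of its copies, Gm8730 (ENSMUSG00000063696) lies on chromosome 8 from 102864845 to 102865798, minus strand. Gm9625 (ENSMUSG00000097906) lies on chromosome 13 from 67810246 to 67811200, plus strand, and overlaps the antisense gene 4930525G20Rik. Gm14165 (ENSMUSG00000081434) lies on chromosome 2 from 152353615 to 152354566, plus strand, inside the transcript Gm14164 of the same strand. Npm1 (ENSMUSG00000057113) lies on chromosome 11 from 33152287 to 33163206, minus strand. Its copies Gm9118 (ENSMUSG00000112825, from 56497341 to 56498094) and Gm6477 (ENSMUSG00000111877, from 39198538 to 39199301) both lie on the plus strand of chromosome 10. Gm12583 (ENSMUSG00000082878) lies on chromosome 3 from 37108174 to 37109026, plus strand, inside Adad1 of the same strand. Each of the 6 copies is annotated as a processed pseudogene with 1 exon.

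How closely the copies resemble their parents decides which reads can tell them apart. For each family, 1 stretch of 90 bases is shown, with the bases that differ from the parent in capitals. Each was picked, among stretches without a gap in the named copies, for the most differences in Gm8730 or in Gm9118. It is therefore not typical of the whole sequence. The Rplp0 stretch covers coding positions 358 to 447, counted from the A of the start codon, in exon 4 of Rplp0-201 (chr5:115561138-115561227, plus strand). The same stretch lies at chr8:102865352-102865441 (minus strand) in Gm8730, chr13:67810603-67810692 (plus strand) in Gm9625 and chr2:152353970-152354059 (plus strand) in Gm14165.
Rplp0: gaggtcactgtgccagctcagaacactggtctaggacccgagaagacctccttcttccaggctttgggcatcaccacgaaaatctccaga
Gm8730: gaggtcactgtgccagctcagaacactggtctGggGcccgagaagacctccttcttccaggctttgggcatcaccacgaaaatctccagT
Gm9625: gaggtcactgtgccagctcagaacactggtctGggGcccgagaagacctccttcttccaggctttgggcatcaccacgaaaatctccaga
Gm14165: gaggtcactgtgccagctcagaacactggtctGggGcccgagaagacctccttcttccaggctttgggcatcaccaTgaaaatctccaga
The Npm1 stretch covers coding positions 601 to 690, at the junction of exons 8 and 9 of Npm1-201 (chr11:33156078-33156726, minus strand, with the intron between). It lies at chr10:56497930-56498019 in Gm9118, chr10:39199129-39199218 in Gm6477 and chr3:37108762-37108851 in Gm12583, each on the plus strand.
Npm1: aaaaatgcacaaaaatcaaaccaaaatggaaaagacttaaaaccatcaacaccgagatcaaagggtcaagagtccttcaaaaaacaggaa
Gm9118: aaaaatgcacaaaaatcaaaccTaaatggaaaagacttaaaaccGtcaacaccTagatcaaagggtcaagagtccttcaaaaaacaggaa
Gm6477: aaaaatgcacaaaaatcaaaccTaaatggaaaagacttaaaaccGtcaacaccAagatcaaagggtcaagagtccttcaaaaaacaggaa
Gm12583: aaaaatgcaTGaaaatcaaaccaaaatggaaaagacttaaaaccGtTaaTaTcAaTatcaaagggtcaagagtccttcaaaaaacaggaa

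Of the 6 named copies, Gm8730 was the most like its parent. Over the 954 bases of the Rplp0 coding sequence it differed at 12 bases with no gap (98.7% identity), and no stop interrupted its 317 codons. Of these 12 differences, 9 were synonymous, and A447T, G502A and A784G (parent base, position, copy base) changed an amino acid. Gm9625 differed at 24 bases and 1 inserted base (97.5%), and its frame met a stop after 298 codons. Gm14165 differed at 25 bases and 2 deleted bases (97.4%), with a stop after 95 codons. Of the differences in Gm8730, 8 also stood in Gm14165 (66.7% of the 12 and 32% of the 25) and 8 in Gm9625. Gm8730 held 3 that were in no other annotated copy and 6 that were in every Rplp0 copy with a base at that position, among them A390G and A784G. Gm8730 and Gm14165 differed from each other at 21 bases, fewer than the 25 between Gm14165 and Rplp0.

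The Npm1 coding sequence has 879 bases, of which Gm9118 covers positions 1 to 765 and Gm6477 positions 2 to 771. Over the part it covers, Gm9118 differed from the parent at 12 bases and 11 deleted bases (98.4% identity). It had a stop after 66 codons. Gm6477 differed at 22 bases with 3 inserted and 9 deleted (97.1%) and had a stop after 8 codons. Gm12583 was the most distant, with 49 different bases (94.2%). Gm9118 and Gm6477 shared 9 differences over the part both cover, 75% of the 12 in Gm9118 and 50% of the 18 in Gm6477, and differed from each other at 11 bases. A267T stood in all 7 Npm1 copies that have a base there. The shared differences between positions 519 and 531 lie next to a gap in a repeat, where their placement depends on the alignment.

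Reads of 150 bases were used in this series. Of the 150-base windows of Gm8730, 21 of 805 (2.61%) occurred without a difference in the coding sequence of Rplp0, against 5.46% for Gm9625 and 0% for Gm14165. The share was 3.97% for Gm9118, 0.488% for Gm6477 and 0% for Gm12583. Most windows of these copies thus held at least 1 base that differs from the parent in the reference. How the deposited values treat a read that fits several places, and alleles of CD1 mice that differ from the reference, were not examined.

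**Figure D1:**
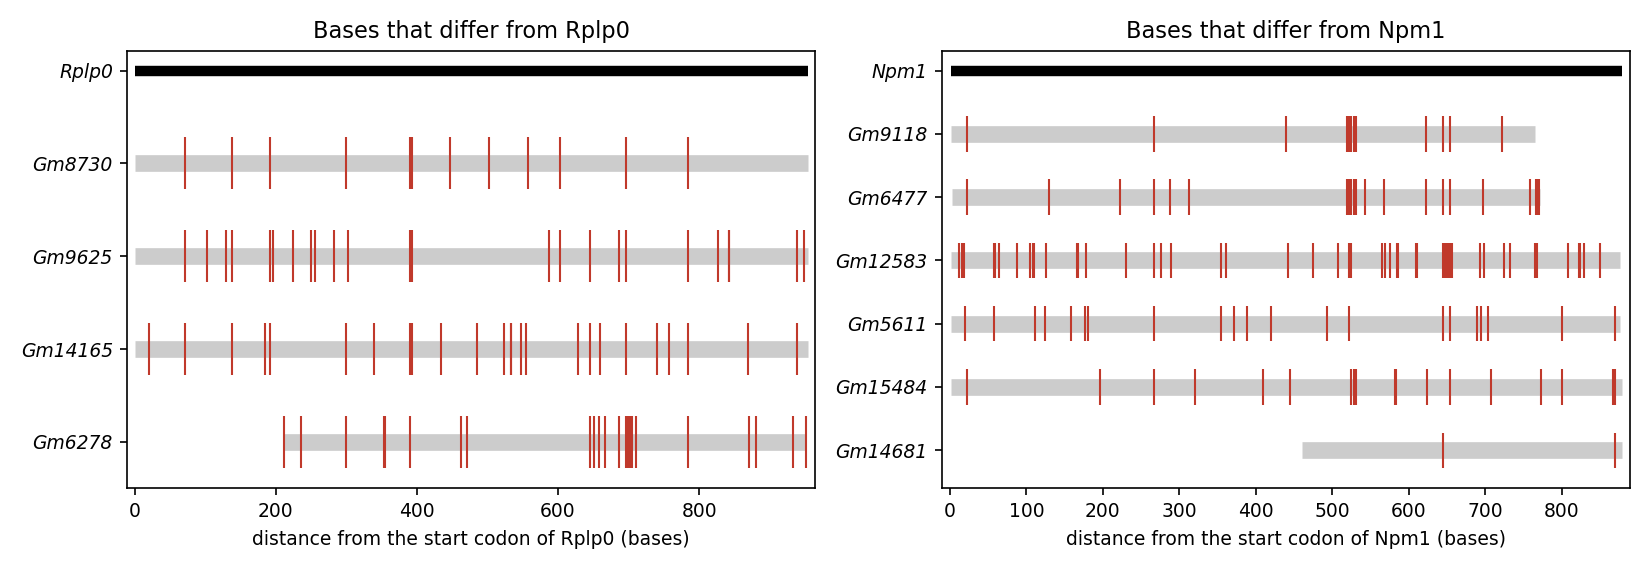
Positions of the bases that differ between each copy (grey bars, red ticks) and the coding sequence of its parent (black bar), with the distance from the start codon in bases on the horizontal axis. Gm8730 and Gm9118 carry 12 ticks each, and Gm12583 carries 49. Gm6278 and Gm14681 cover only part of the parent, and Gm9118 and Gm6477 end at positions 765 and 771 of 879.

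The unit of the table was taken as FPKM, fragments scaled to the length of the gene model and the depth of the library, so levels of different genes can be compared per length. Total FPKM per mouse ran from 286388 to 358590. The implied depth ran from 17300000 fragments in responder 1 to 38700000 in nonresponder 4. The label of each mouse carries a number of unstated meaning, with 4 values among responders and 3 among nonresponders. Each number held mice of 1 response group and 1 sex, so that it cannot be told apart from the response. All 12 sensory neuron markers had a median of at least 1 FPKM. Their sum was 3423 to 7066 FPKM among responders and 3892 to 5936 among nonresponders. The sum of 5 Schwann cell markers was 2227 to 4262 among responders and 4099 to 6082 among nonresponders. The sum of 8 pituitary markers was 359.1 to 77911 among responders, highest in responder 1, and 27.2 to 1053 among nonresponders. Of 5 fibroblast markers, the sum was 121 to 210 and 126 to 562. In bulk RNA, fewer cells of a type and less RNA per cell cannot be told apart.

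Rplp0 itself varied widely in both groups. Across responders 1 to 6 it stood at 158, 143, 49.2, 111, 179.7 and 72.8 FPKM, and across nonresponders 1 to 6 at 54.7, 58.3, 62.2, 174, 70.6 and 137 FPKM. The groups overlapped: the lowest mouse was responder 3 and the highest responder 5, closely followed by nonresponder 4. The means were 119 ± 50.6 among responders and 92.9 ± 50.3 among nonresponders (SD, n = 6 per group).

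Gm8730, the copy with no early stop, was listed at 23.7, 23.9, 25.1, 42.4, 2.62 and 17.1 FPKM across responders 1 to 6. Across nonresponders 1 to 6 it was listed at 1.43, 1.59, 1.26, 2.47, 2.29 and 1.49 FPKM. Of the responders, 5 lay far above the nonresponders, and responder 5 lay only just above nonresponder 4. The means were 22.5 ± 12.9 and 1.76 ± 0.501 FPKM (SD, n = 6 per group), a responder minus nonresponder difference of 2.80 on the log2(FPKM + 1) scale. At the implied depth, these values amount to about 345 to 1508 fragments in the 5 high responders, 81.6 in responder 5 and 26.6 to 91.1 among nonresponders.

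Gm14165 was high in the same mice at a lower level. It was listed at 1.23, 2.00, 2.07, 2.86, 0.0586 and 1.297 FPKM across responders 1 to 6 and between 0.0546 and 0.0952 among nonresponders. The 5 responders high for Gm8730 were high again, and responder 5 lay within the range of the nonresponders. The values of the nonresponders rest on about 1.19 to 3.504 fragments each, so that their level is close to the limit that a handful of fragments allows. Gm14165 reached 1 FPKM in 5 mice, all responders, and so passed the filter on low values (at least 1 FPKM in at least 3 mice) only through them.

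Gm9625 differed less. Responders 1 to 4 were listed at 1.98, 1.77, 1.75 and 1.75 FPKM, responders 5 and 6 at 0.866 and 0.885, and nonresponders from 0.655 to 0.992. Responder 6, high for Gm8730 and Gm14165, lay within the range of the nonresponders for Gm9625. The difference was 0.44 on the log2(FPKM + 1) scale and 0.76 with a pseudocount of 0.1, a scale that shrinks the change of low genes less. For Gm14165 it was 1.169 and 2.90.

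The genes that overlap these copies were low. Gm14164 reached at most 0.748 FPKM, 4930525G20Rik at most 0.52 and Adad1 at most 0.293. The labels do not say whether counting took strand into account. The nearest tested gene to Gm8730 was Cdh11, a cadherin gene 79203 bases away, which ran from 9.60 to 18.4 FPKM among responders and from 17.5 to 21.4 among nonresponders. Its groups overlapped through responder 6 alone, and the other responders lay below every nonresponder. Of the 16 nearest tested genes, on either side of the 8 loci, 0 had response groups that did not overlap. Over all 14203 genes tested that share was 0.549%, so nothing is read from this count.

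Npm1 was the steadier parent. It stood at 126, 73.3, 79.6, 67.6, 61.8 and 71.0 FPKM across responders 1 to 6 and at 79.6, 70.8, 77.4, 111, 65.9 and 67.6 FPKM across nonresponders 1 to 6. Responder 1 and nonresponder 4 lay above the other 10 mice, and the groups overlapped almost completely. The means were 79.8 ± 23.2 and 78.8 ± 16.9 FPKM (SD, n = 6 per group). Responder 1 also had the highest sum of pituitary markers, and nonresponder 4 had the highest sums of 5 neutrophil markers (3284 FPKM, against 6.42 to 635 in the other 11 mice) and of 5 cell division markers (99.5, against 0.77 to 20.3). Their part in the Npm1 values was not tested.

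Gm9118 ran the other way from Gm8730. It was listed at 0.582, 7.69, 0.376, 0.473, 0.292 and 0.470 FPKM across responders 1 to 6 and at 5.55, 10.7, 5.65, 7.31, 10.6 and 4.33 across nonresponders 1 to 6. All nonresponders were high, 5 responders were low, and responder 2 lay inside the range of the nonresponders. The means were 1.65 ± 2.96 and 7.36 ± 2.72 FPKM (SD, n = 6 per group), a responder minus nonresponder difference of -2.05 on the log2(FPKM + 1) scale and -3.09 with a pseudocount of 0.1. The low values amount to about 7.19 to 13.3 fragments, against 133 in responder 2 and 77.4 to 213 among nonresponders.

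Gm6477 followed the same mice over a narrower range. It was listed at 0.721, 1.78, 0.957, 0.761, 0.541 and 0.667 FPKM among responders and at 2.20, 3.08, 1.74, 2.75, 3.10 and 1.83 among nonresponders. Responder 2 was again the only responder inside the range of the nonresponders. Gm9118 and Gm6477 each reached 1 FPKM in 7 mice, the 6 nonresponders and responder 2. Gm12583, the most distant copy, was listed at 0 in 6 mice, reached at most 0.0725 FPKM and was left out by the filter.

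**Figure D2:**
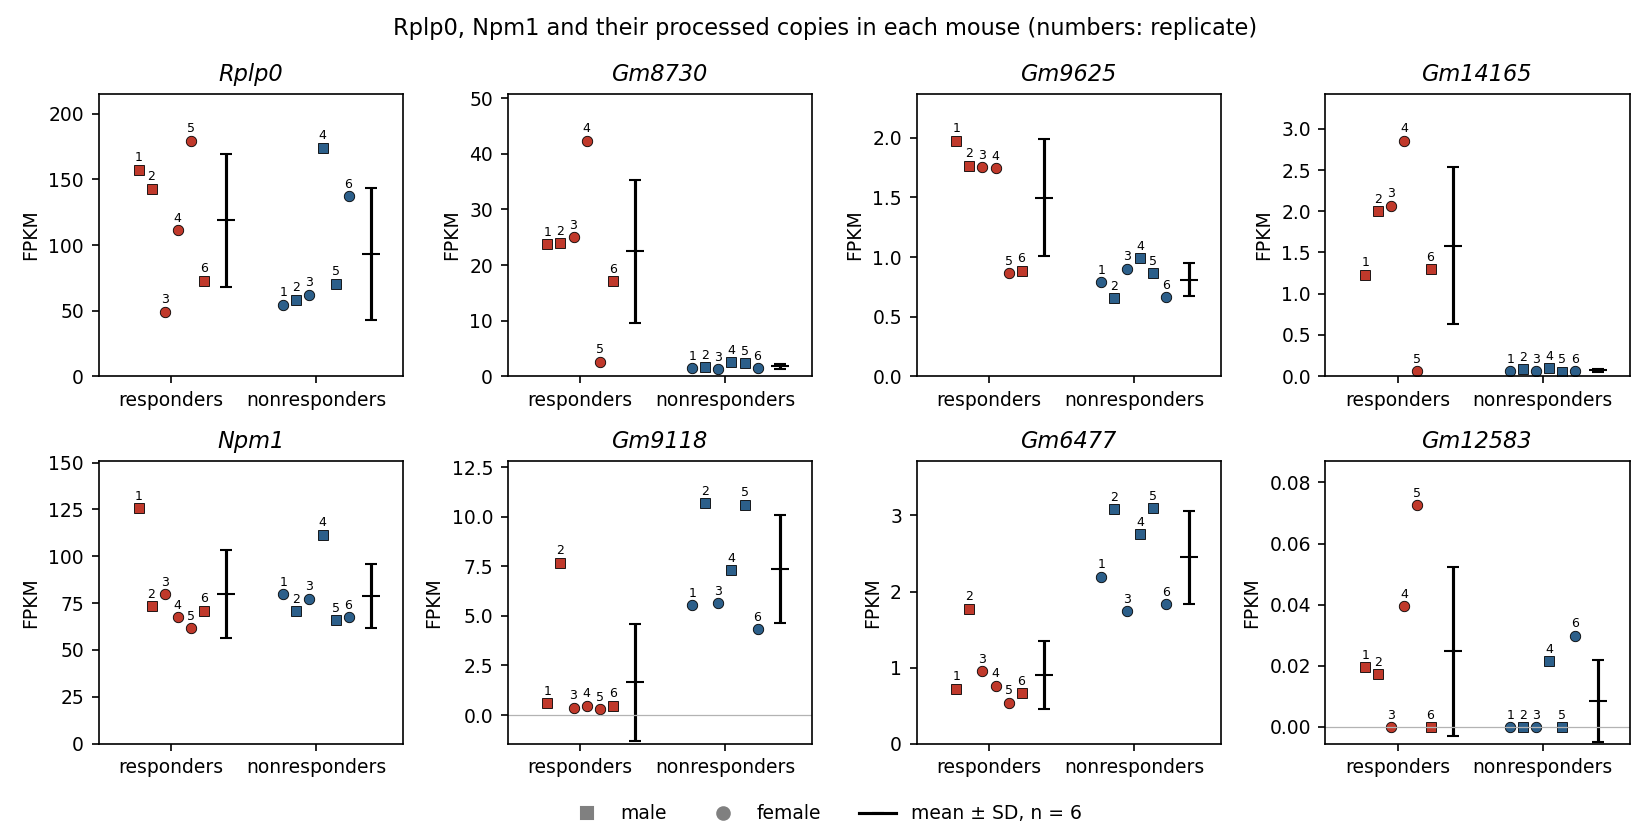
FPKM of each gene (vertical axis, own scale) in the 6 responders (red) and 6 nonresponders (blue), with squares for males, circles for females, the replicate number above each point and the mean ± SD beside each group. Responder 5 sits at 2.62 for Gm8730, beside the nonresponders, and responder 2 sits at 7.69 for Gm9118, among the nonresponders.

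Thus 7 of the 8 genes passed the filter, several only through the mice in which they are high, and 1 of these, Gm8730, had response groups that did not overlap. Over all 14203 genes tested, the groups did not overlap for 0.549% (0.253% higher among responders), and for 0.905% of 663 processed pseudogenes. Since the members were chosen on this contrast, nothing is read from their count.

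The share of each copy was taken of the family total, the summed FPKM of the parent and its 3 named copies. In the Rplp0 family, the copies together held 14.6%, 16.2%, 37.0%, 29.7%, 1.94% and 20.9% across responders 1 to 6, and 3.99%, 3.84%, 3.44%, 2.00%, 4.35% and 1.59% across nonresponders 1 to 6. Gm8730 made up most of it, with 32.1% in responder 3 and 26.8% in responder 4. The 2 groups of values overlapped through responder 5 alone. The share of Rplp0 was 79.9 ± 12.3% among responders and 96.8 ± 1.14% among nonresponders (SD, n = 6 per group). The family total was 144 ± 47.2 FPKM among responders and 95.5 ± 50.7 among nonresponders. It ran from 78.1 to 184 and from 56.9 to 178, so the groups overlapped over most of their range.

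A high share of copies did not go with one level of Rplp0. Responder 3, with the largest share, had the lowest Rplp0 of all mice (49.2 FPKM) and 28.9 FPKM in its copies. Responder 4 had 111 FPKM of Rplp0 and 47.0 in its copies. Responder 5 had the highest Rplp0 and 3.55 in its copies.

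In the Npm1 family, the copies together held 1.04%, 11.5%, 1.65%, 1.85%, 1.44% and 1.58% across responders 1 to 6, and 8.87%, 16.3%, 8.72%, 8.30%, 17.2% and 8.40% across nonresponders 1 to 6. Nonresponders 2 and 5 were the highest, the other 4 nonresponders lay within 8.30% to 8.87%, and responder 2 lay between these. The share of Npm1 was 96.8 ± 4.07% among responders and 88.7 ± 4.24% among nonresponders (SD, n = 6 per group). This difference of 8.13 percentage points was 2.575 when shares were taken of fragments (FPKM times the length of the gene model) in place of FPKM. For Rplp0 the difference was -16.8 points by FPKM and -11.1 by fragments. The Npm1 family total ran from 62.7 to 127 FPKM among responders and from 73.8 to 122 among nonresponders.

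**Figure D3:**
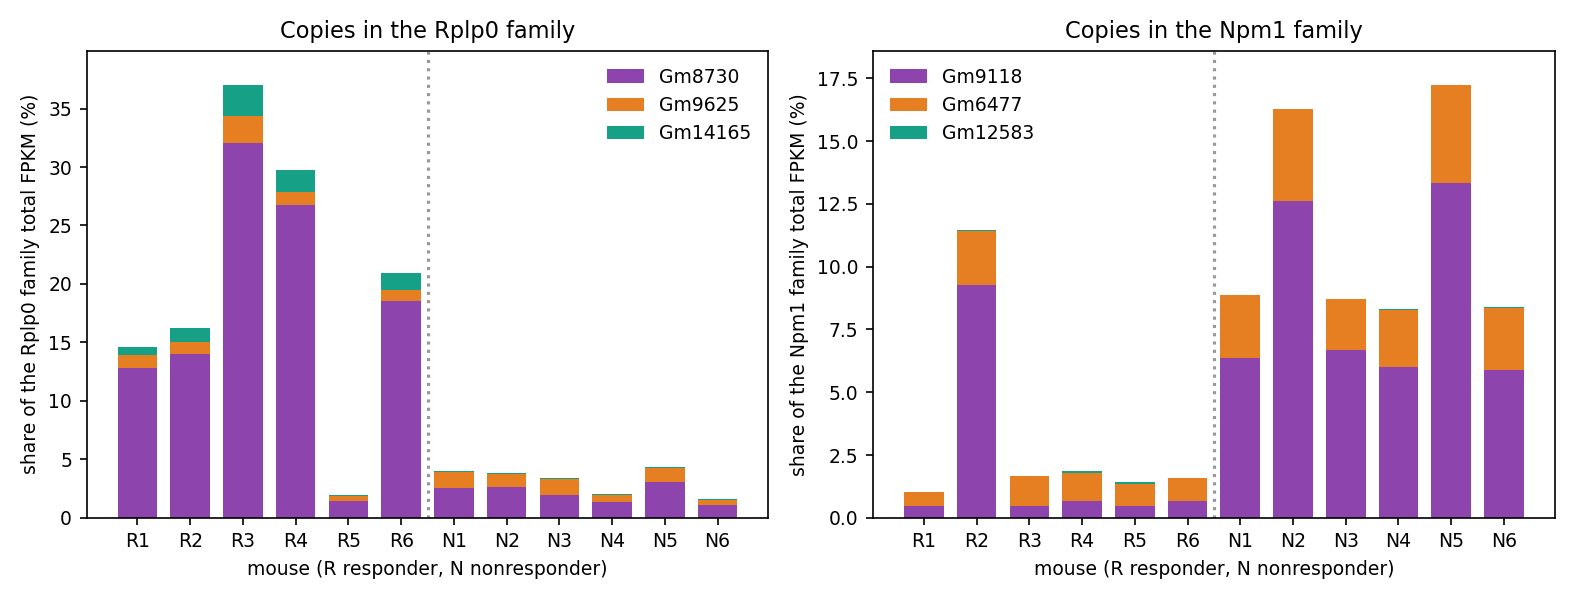
Share of each copy (stacked bars, percent of the summed FPKM of the parent and its 3 named copies) among responders R1 to R6 and nonresponders N1 to N6, with a dotted line between the groups and the rest of each total, not drawn, held by the parent. The Rplp0 copies hold 14.6% to 37.0% in 5 responders and 1.94% in R5, and the Npm1 copies hold 8.30% to 17.2% in the nonresponders and 11.5% in R2.

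Gm8730 and Gm14165 were high in the same 5 mice, and Gm9118 and Gm6477 in the same 7. Responder 2 was high for the Rplp0 copies and the Npm1 copies, and responder 5 was low for both. The other 4 responders were high for Gm8730 and Gm14165 and low for Gm9118 and Gm6477, and the 6 nonresponders were the reverse. Responder 2 shares its label number and its sex with responder 1, in which Gm9118 was listed at 0.582 FPKM. Responder 5 is the only mouse with its number, as are responder 6 and nonresponder 3 with theirs. The sum of Schwann cell markers was 2975 in responder 2 and 4262 in responder 5, and that of pituitary markers was 6850 and 1174. The part of these tissues in the copies' values was not tested.

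Ratios between copies were not fixed. Gm8730 was 11.95 to 19.3 times Gm14165 in the 5 high responders and 19.3 to 44.7 times in the other mice, where Gm14165 rests on few fragments. Gm9118 was 2.36 to 4.33 times Gm6477 in the 7 mice in which it was high and 0.393 to 0.806 times in the other 5. Gm8730 was 0.150 to 0.509 times Rplp0 in the 5 high responders, 0.0146 times in responder 5 and 0.0109 to 0.0325 times among nonresponders.

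By blastn at 90% identity or more over at least 200 bases, each parent had 8 annotated pseudogene copies, of which 10 in all are not among the named members. All are annotated as processed except Gm4866, a copy of Rplp0 annotated as unprocessed. The highest were Gm14681 and Gm6278. Gm14681, which covers the end of the Npm1 coding sequence at 99.5% identity, ran from 3.38 to 9.70 FPKM among responders and from 6.05 to 13.4 among nonresponders. Of its 150-base windows, 28.6% occurred unchanged in the Npm1 coding sequence. Gm6278, a copy of part of Rplp0, ran from 3.504 to 6.05 and from 2.40 to 5.15. In responders 2 to 6, Gm14681 was 3.38 to 5.22 FPKM, below every nonresponder, while responder 1 (9.70) lay within their range. The responder that stood apart was thus not the one that did so for Gm9118, responder 2. Gm6278 did not have the pattern of Gm8730.

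Another pair of Npm1 copies, named after their values were seen, did follow Gm9118. Gm5611 was listed at 0.00629, 1.14, 0.0299, 0.0843, 0.0306 and 0.108 FPKM across responders 1 to 6 and from 0.555 to 1.498 among nonresponders. Gm15484 reached 0.483 FPKM in responder 2, at most 0.0967 in the other responders, and from 0.389 to 0.712 among nonresponders. Each was thus high in the same 7 mice as Gm9118. The low values of both lay below every value of Gm9118 (0.292 FPKM or more), so they rest on few fragments. Gm5611 shared 2 of the 12 differences of Gm9118 and Gm15484 shared 3. Over the part they share, Gm5611 differed from Gm9118 at 24 bases and Gm15484 at 14. Of the remaining 6 copies, none passed 0.269 FPKM in any mouse, and Gm7289 and Gm8199 were listed at 0 in all.

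**Figure D4:**
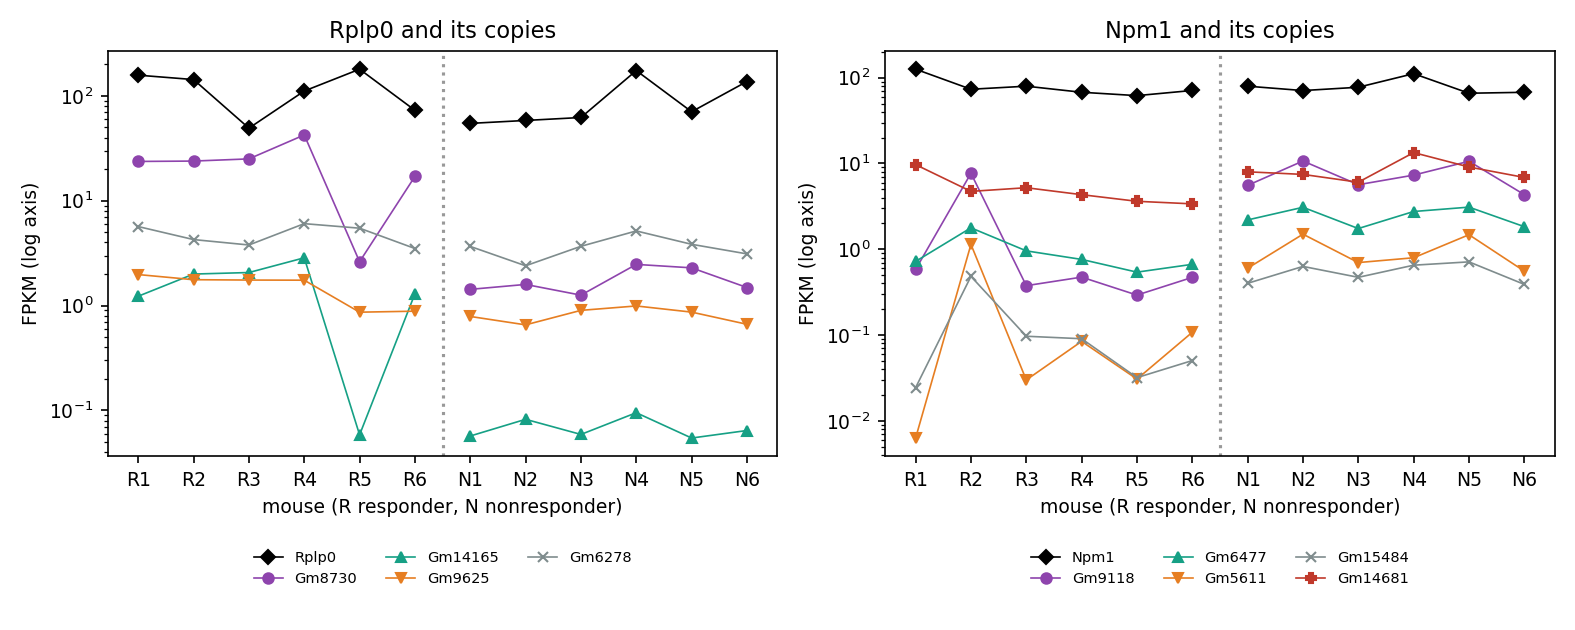
FPKM (log axis) of each parent and of the copies above 0.4 FPKM in at least 1 mouse, among responders R1 to R6 and nonresponders N1 to N6, with lines that only link the mice of a group for reading. Gm8730 and Gm14165 drop together in R5, and Gm9118, Gm6477, Gm5611 and Gm15484 stand above the other responders in R2, while the parents and Gm14681 do not.

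Likeness over the 12 mice was measured by Pearson r of log2(FPKM + 1) with each of 14202 other tested genes, as a ranking with no test, since the mice fall into separate sets. For Gm8730 the closest gene was Gm14165 (r = 0.98), followed by Atp9b (0.91), a flippase gene, and the lincRNA gene Gm32856 (0.90), while Gm9625 came 6th (0.88) and Rplp0 5030th (0.14). For Gm14165 they were Gm8730, Gm32856 (0.93) and the polyubiquitin gene Ubb (0.91). Gm9625 was closest to the purine synthesis gene Gart (0.93), to Anapc13 (0.91), which encodes a subunit of the anaphase-promoting complex, and to Ubb (0.89). For Gm9118 they were Gm5611 (0.97), Gm6477 (0.96) and Dnajc19 (0.90), which encodes a mitochondrial cochaperone, and for Gm6477 they were Gm9118, Dnajc19 (0.94) and Gm5611 (0.93). Dnajc19 itself ran from 7.16 to 11.4 FPKM among responders and from 8.76 to 12.6 among nonresponders.

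The parents had other companions. Rplp0 was closest to Vps72 (0.86), a chromatin remodelling subunit, to the ribosomal protein gene Rpl10 (0.85) and to the RNA polymerase III gene Polr3b (0.84). Rpl10 ran from 9.06 to 44.0 FPKM among responders and from 7.93 to 26.9 among nonresponders. Npm1 was closest to the ribosomal protein gene Rps6, the pseudogene Gm6741 and the sialic acid phosphatase gene Nanp, each at 0.96. Rps6 ran from 213 to 396 FPKM among responders and from 221 to 338 among nonresponders. With Npm1, Gm9118 had an r of -0.03 and Gm6477 one of 0.01.

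Within the 6 nonresponders, each copy was set against its parent over 5 pairs, with exact permutation tests, 2-sided. For Gm8730 and Rplp0, Pearson's r was 0.54 (exact permutation p = 0.175, adjusted p = 0.451) and Spearman's rho 0.60 (exact permutation p = 0.242). Without the 2 mice farthest from the median of Rplp0, r was 0.78, and without nonresponder 4 it was -0.04. With Npm1, r was -0.15 for Gm9118 and 0.08 for Gm6477 (adjusted exact permutation p = 0.975 for each). None of these 3 relations passed. Gm9625 and Gm14165 lay below 1 FPKM in every nonresponder, and nothing is read from their pairs. In responders, values fell into separate sets and no r is given.

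The choice of members did not use the comparison of females with males. Gm9118 stood at 2.78 ± 2.67 FPKM in females and 6.23 ± 4.64 in males, and Gm6477 at 1.34 ± 0.672 and 2.02 ± 1.13 (SD, n = 6 per sex). Among nonresponders, the 3 males had 7.31 to 10.7 FPKM of Gm9118 and the 3 females 4.33 to 5.65. Those 3 males share 1 label number, from which their sex cannot be told apart. By limma with the response group as a covariate, the female minus male difference was -0.87 on the log2(FPKM + 1) scale for Gm9118 (SE 0.369, adjusted p = 0.864) and -0.32 for Gm6477 (SE 0.132, adjusted p = 0.864). Neither passed. Both genes entered the fit only through the nonresponders and responder 2, in which they are high, so nothing is read from their differences. For Gm9118 the difference was -0.49 without responder 2 and -0.44 with the replicate number as a block. Their unadjusted p values by limma were 0.0374 and 0.0333, below 0.05 as for 4.53% of all genes tested.

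Gm8730 and both parents did not pass either. The difference was -0.43 for Gm8730 (SE 0.473), -0.22 for Rplp0 (SE 0.384) and -0.21 for Npm1 (SE 0.171), with adjusted p by limma between 0.864 and 0.902. For Npm1 it was -0.08 without responder 1. Gm14165 and Gm9625 entered the fit only through responders, the group in which they are high, so their differences of -0.06 (SE 0.256) and -0.04 (SE 0.136) are values from which nothing is read. Gm9118 and Gm6477 entered through the nonresponders and responder 2. Of the 7 members in the fit, 0 were called by limma, against 0.0563% of all genes tested, and 2 had an unadjusted p under 0.05. Since 4 of the 7 passed the filter in this way, the count supports nothing about the family. The sexes overlapped for each of them, and did not overlap for 0.317% of all genes tested. These standard errors allow sizeable differences for Gm8730 and Rplp0, so that equal levels are not shown.

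Family totals by sex also overlapped. The Rplp0 family stood at 113 ± 53.6 FPKM in females and 127 ± 57.0 in males (SD, n = 6 per sex; exact permutation p = 0.632, 2-sided, over all splits of the mice). This difference of -13.2 FPKM ran from -27.2 to -1.65 with each mouse left out, and was smallest without responder 1. The Npm1 family stood at 76.4 ± 9.61 and 94.6 ± 23.4 FPKM (exact permutation p = 0.132, adjusted over the 2 families 0.264), a difference of -18.2 that ran from -22.7 to -11.7 and was smallest without responder 1. The share of Rplp0 in its family was 87.1 ± 15.99% in females and 89.7 ± 7.89% in males (exact permutation p = 0.712), and that of Npm1 was 94.8 ± 3.85% and 90.7 ± 6.998% (exact permutation p = 0.229, adjusted 0.459). None of these 4 differences passed the exact permutation test, and the sexes overlapped for each. Unlike the limma fit, this test took no account of the response group, by which the shares differ. Nor did it account for label numbers that mice of 1 sex share.

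Genes that work with the 2 parents showed no difference by response past the test. The first list held 13 genes of the ribosomal stalk and the GTPase centre, such as the stalk proteins Rplp1 and Rplp2 and the elongation factors. All 13 were tested, 0 were called by limma in either direction, against 0.0211% of all genes tested, and 0 had an unadjusted p under 0.05, against 7.4%. Of these, 7 had higher and 6 lower values among responders, with a median difference of 0.03 on the log2(FPKM + 1) scale, beside 0.00 over all genes tested. Rpl11, which binds the 5S RNA, stood at 89.95 ± 11.3 FPKM among responders and 76.6 ± 7.40 among nonresponders (SD, n = 6 per group; difference 0.23, SE 0.103, limma adjusted p = 0.676). Rpl3 stood at 162 ± 19.8 and 137 ± 19.0 FPKM (difference 0.23, SE 0.112, limma adjusted p = 0.679). Mrto4, an assembly factor related to the protein of Rplp0, stood at 13.3 ± 1.84 and 11.8 ± 1.05 FPKM, and Rpl10 at 24.0 ± 12.9 and 15.5 ± 7.61.

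The other list held 25 nucleolar partners and relatives of nucleophosmin, of which 21 were tested. By limma, 0 were called and 0 had an unadjusted p under 0.05. In responders 11 had higher and 10 lower values, with a median difference of 0.02 on the log2(FPKM + 1) scale. Mybbp1a, a nucleolar transcription regulator, stood at 15.0 ± 1.56 FPKM among responders and 13.3 ± 1.44 among nonresponders (SD, n = 6 per group; difference 0.16, SE 0.0943, limma adjusted p = 0.733). Nop56, a core protein of box C/D ribonucleoproteins, stood at 12.4 ± 7.67 and 17.6 ± 9.61 FPKM. Gar1, a protein of box H/ACA ribonucleoproteins, stood at 7.61 ± 1.42 and 6.24 ± 1.40 FPKM, and the assembly factor Nip7 at 1.43 ± 0.408 and 1.11 ± 0.438.

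By sex, 0 genes of either list were called by limma and 0 had an unadjusted p under 0.05. Lower values in females were seen for 10 of 13 stalk genes (median difference -0.12) and 18 of 21 nucleolar genes (median -0.11), beside a median of -0.01 over all genes tested. The males responder 1 and nonresponder 4 were highest for Rpl12 (165 and 150 FPKM), Rpl23 (200 and 208) and Npm3 (9.23 and 12.2). For Nat10 and Dkc1, responder 1 was also highest (3.68 and 3.77 FPKM), followed by responder 2 (2.82 and 3.70). Nonresponder 4 stood at 1.98 and 3.49 FPKM. Genes of a list can move together, and the share of all genes lower in females is not given, so nothing is read from these counts. The smallest p values were those of Nat10, an RNA acetyltransferase, at 1.57 ± 0.245 FPKM in females and 2.33 ± 0.845 in males, and Dkc1, a pseudouridine synthase, at 2.37 ± 0.359 and 3.18 ± 0.752 (SD, n = 6 per sex; limma adjusted p = 0.864 for each).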

How the data were processed

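RNA sequencing values of trigeminal ganglia from 12 mice were used. The authors deposited FPKM values in 1 table of genes by mice. The submitters' processing notes name STAR 2.6.0a, StringTie 1.3.5 and the builds GRCm38 and mm10, without saying what each was used for. The header names no unit, and FPKM was inferred: totals differ between mice, and values of single-exon genes fall on steps of 1 fragment. Settings for reads that fit several places are not given in these sources. Response group and replicate came from the sample titles and sex from the characteristics. No column belonged to another sample (0), and 0 pairs of columns were identical. Of 51341 identifiers, 51076 were in GENCODE M21.

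The 14203 genes that reached 1 FPKM in 3 or more mice were fitted with limma 3.58.1 (R 4.3.3) on log2(FPKM + 1), 2-sided, adjusted by Benjamini-Hochberg over all genes tested, threshold 0.05. The procedure was tested on simulated data. Differences on this scale understate the change of low genes. Family totals and shares were compared over mice by exact permutation, whose smallest p is 0.00216. The p values measure the spread between these mice. Copies were found among GENCODE transcripts with blastn 2.17.0 (at least 90% identity over 200 bases, e-value 1e-20) and aligned to the parent's coding sequence with Biopython 1.88. A protein-coding gene, Gucd1, matched and was left out of the copies. Printed sequences are those of GENCODE M21 transcripts of GRCm38.

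The members and lists were chosen with earlier results of these data known. Named genes are the 8 members, up to 4 genes per list with the smallest p, the 3 genes most alike to each member, and the 2 highest other copies. Gm5611 and Gm15484, the neighbouring and overlapping genes and the spread of genes of like level were added after their values were seen. Depth was inferred from the steps, so fragment numbers are approximate and carry no interval.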

Additional observations from a re-analysis of the deposited data

Results flagged for a closer look

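In groups of 6 mice, a value was marked when its gap to the nearest other mouse exceeded 0.625 of the whole range (Dixon's critical value at 95%). Of 24 groups examined, 7 had such a value. Chance marks about 1 group in 20 only where groups are independent and values normally spread. The share of marked groups over all genes tested was not computed. The members were chosen with their values by response known, so nothing is read from this count. The groups overlap in content, since a family total or share holds its members.

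Gm9118 in responder 2, at 7.69 FPKM, stood above the other responders with a gap of 0.961 of the range. Gm6477 in the same mouse, at 1.78 FPKM, had a gap of 0.663. The share of Npm1 in its family was 88.5% in responder 2, below the other responders with a gap of 0.923.

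Npm1 was 126 FPKM in responder 1 (gap 0.721) and 111 FPKM in nonresponder 4 (gap 0.699), above the rest of their groups. The Npm1 family totals of these mice were 127 FPKM (gap 0.687) and 122 FPKM (gap 0.715). No group of Rplp0 values or of its copies was marked.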

How the results depend on the processing

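For the 7 tested members, 139 alternative values of the female minus male difference were computed. Of these, 131 kept their direction, 8 reversed and 0 were called (smallest adjusted p by limma 0.499). The reversals were small: Rplp0 gave 0.021 with the replicate block, Gm9625 gave 0.0067 after quantile normalization, and leaving out each mouse gave -0.41 to 0.0010 for Rplp0, -0.74 to 0.056 for Gm8730, -0.13 to 0.040 for Gm9625 and -0.22 to 0.20 for Gm14165. For members that kept their direction, the ranges were -1.06 to -0.49 for Gm9118 (-0.44 with the replicate block), -0.39 to -0.23 for Gm6477 and -0.29 to -0.08 for Npm1 (-0.38). The highest values came without responder 3 for Rplp0, without responder 5 for its copies, without responder 2 for Gm9118 and without responder 1 for Npm1. The sign of the response difference held under every alternative run except for Npm1. The Npm1 difference ran from -0.13 to 0.09 with each mouse left out. Because the members were chosen on this contrast, nothing is read from the signs that held.

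Genes called by sex numbered 8, 6 to 9 with each mouse left out and 5 with the replicate block. Genes called by response numbered 3, 2 to 6 with each mouse left out (5 when responder 2 was left out, and 6 for responder 5 or 6), 1 with the replicate block and 1 with mice averaged by label number. Same-numbered mice of the 2 groups did not deviate together (correlations from -0.273 to 0.133, and 0 of 6 best with their own number), so the numbers do not pair them.

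The response difference in the Npm1 share was 6.95 to 9.79 points with each mouse left out and 2.575 as a share of fragments. The Npm1 gene model is longer than its copies, which that setting weights. For Rplp0 it was -20.5 to -13.5 with each mouse left out. Both ranges describe the contrast on which the members were chosen, and nothing is read from their keeping a sign. The sex difference in the Rplp0 share, -2.63 points, was 3.115 with mice averaged by number and -4.90 to 2.18 with each mouse left out, turning without responder 3 or responder 4 (0.72). The cause was not tested.

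Correlations of copy and parent among nonresponders turned sign for 4 pairs without nonresponder 4. With each mouse left out, r ranged from -0.038 to 0.79 for Gm8730, -0.46 to 0.71 for Gm9625, -0.021 to 0.88 for Gm14165, -0.46 to 0.089 for Gm9118 and -0.48 to 0.35 for Gm6477, which was -0.14 after rescaling each mouse to the same sum. Nothing is read from the pairs of Gm9625 and Gm14165, below 1 FPKM in these mice. Depth limits Gm14165, Gm12583 and the low values of Gm9118, Gm6477, Gm5611 and Gm15484. With mice averaged by number, Gm9625 did not pass the filter and gave no value.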

Other observations

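The spread of the parents was set beside that of genes at a like level, a comparison chosen after the values were seen. Among 863 genes with a mean of 50 to 200 FPKM, the median coefficient of variation over the 12 mice was 15.0%. Rplp0 had 47.2%, with 42 genes above it, and Npm1 had 24.4%, with 138 above it.

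The response groups overlapped for the nearest tested genes of Gm9118 and Gm6477, which lie on the same chromosome, and of Gm14165. They did not overlap for only 0.549% of all genes tested, so nothing is read from this. Gja1, a connexin gene 94828 bases from Gm9118, ran from 13.1 to 28.9 FPKM among responders and from 14.8 to 25.6 among nonresponders. Tube1, a tubulin gene 45996 bases from Gm6477, ran from 0.758 to 1.18 and from 0.929 to 1.48. Trib3, a pseudokinase gene 9583 bases from Gm14165, ran from 1.11 to 2.84 and from 0.873 to 1.47.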
